A study of Mus musculus with 18 samples.

Results

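CD11b+ CD103+ double-positive dendritic cells (DCs) of the small intestinal lamina propria were compared with CD11b+ single-positive DCs of the same tissue, across all genes that passed a filter on low counts. The comparison used 6 of the 18 RNA-seq libraries of the series, chosen by their labels: 3 of double-positive DCs and 3 of CD11b+ DCs. The mice of all 6 libraries, the CD11b+ controls included, were labelled C57BL/6J with a CD11a knockout. Itgal encodes CD11a, which pairs with CD18 to form LFA-1, the integrin by which leukocytes bind ICAM-1. No wild-type library and no age or treatment of a single sample was given, and the labels do not say how the knockout was made. The protocol in the labels sorted live CD45+ CD64- DCs with high MHC class II and CD11c after removal of Peyer's patches, and parted the 2 populations by CD103. The other 12 libraries held CD103+ DCs of the lamina propria and the 3 subsets from intestinal lymph nodes. The labels number the replicates of each group but do not say that each came from a separate animal, so the p-values measure only the spread between libraries. That spread was estimated in a single fit of all 18 libraries.

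Both populations belong largely to the type 2 conventional DCs (cDC2), which present antigen to CD4 T cells. Double-positive DCs are a population particular to the gut, are known to depend on Notch2 signalling and the transcription factor IRF4, and carry antigen to the mesenteric lymph nodes, where they are known for priming Th17 and regulatory T cells. CD11b+ CD103- cells of the lamina propria are more mixed, and include CCR2-dependent DCs that share surface markers with monocyte-derived macrophages.

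The total count was 25891685 to 29648087 per library, and the 20 most abundant genes held 17.9% to 18.8% of it. Values below are counts per 1000000 counts (CPM) after TMM scaling, listed for replicates 1, 2 and 3 in that order. Itgal, the targeted gene, was read at 20.4, 25.3 and 21.8 CPM in CD11b+ DCs and at 18.4, 17.6 and 20.3 CPM in double-positive DCs. Reads on the gene were thus present in every library, and without a wild-type library they do not check the knockout label. Of the genes used in the sort, Itgae (CD103) had 121, 92.1 and 293 CPM in CD11b+ and 826, 714 and 896 CPM in double-positive DCs, whereas Itgam (CD11b) had 55.3, 60.5 and 68.1 and 65.9, 63.2 and 76.4 CPM. Itgax (CD11c), Ptprc (CD45) and H2-Ab1 had log2 fold changes of 0.16, 0.09 and 0.13. These genes match the labels and are the gate, not a result. CD11b+ replicate 3 stood apart in several of the measures that follow, among them an Itgae level above both other CD11b+ libraries; the log2 fold change of Itgae was 2.27 with it and 2.93 without it.

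Of 17074 genes tested, 194 were higher and 627 lower in double-positive DCs, at an adjusted p under 0.01 and a fold change over 2. These are 1.14% and 3.67% of the genes tested, and the median log2 fold change over all of them was -0.00499. Adjusted p-values are Benjamini-Hochberg values over all genes tested, from edgeR's quasi-likelihood test. Falls were both more frequent and larger: 433 of the lower genes but 55 of the higher ones differed by more than 2 on the log2 scale. Many of the lower genes had few reads, since 250 of them, against 139 of the higher genes, reached a mean of 10 CPM in the group where they were high. No read was seen in any double-positive library for 28 of the lower genes. The immunoglobulin gene segments and constant regions among the called genes, 11 in number, were all lower. In bulk samples such as these, fewer cells of a type and less RNA per cell cannot be told apart. Without CD11b+ replicate 3, 243 genes were higher and 535 lower, of which 171 and 493 were among the genes called with it.

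**Figure D1:**
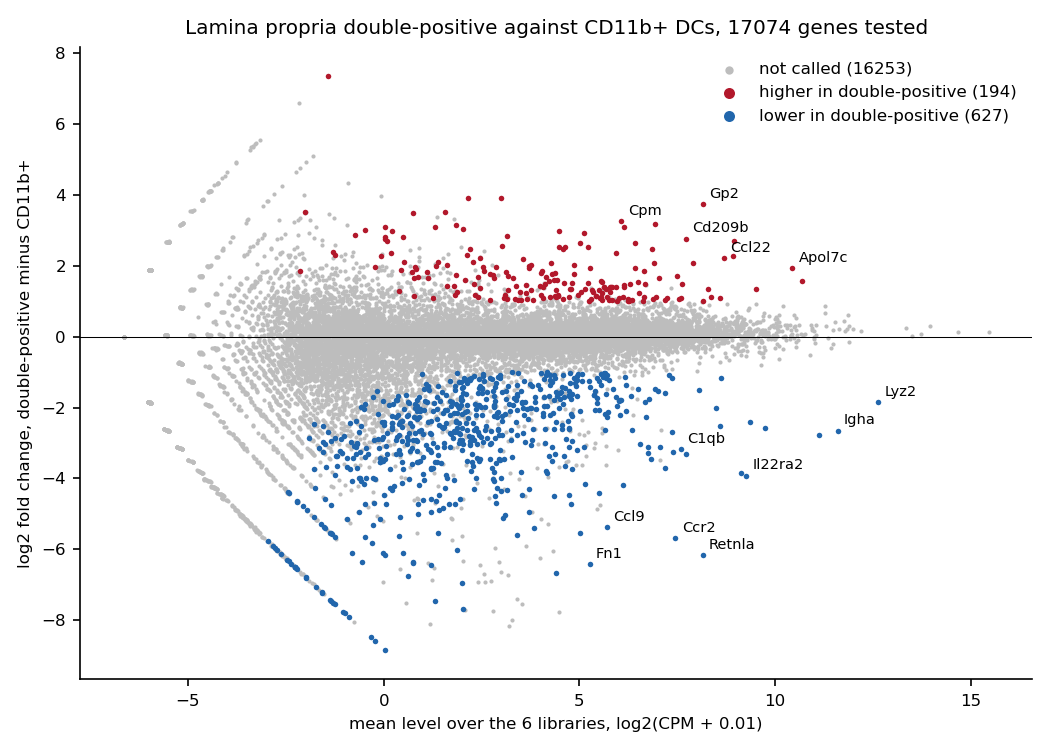
Each point is 1 of the 17074 genes, placed by its mean level over the 6 libraries (log2 of CPM + 0.01) and by its log2 fold change, double-positive minus CD11b+. The 627 lower genes (blue) reach further from 0 than the 194 higher genes (red), and the diagonal edges at the left hold genes with no read in one of the groups.

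The genes that rose most in double-positive DCs included several that encode surface receptors. Gp2 encodes a glycoprotein best known as a receptor for bacterial fimbriae on M cells. It was at 26.1, 20.5 and 73.4 CPM in the CD11b+ libraries and at 444, 380.4 and 775 CPM in the double-positive libraries (log2 fold change 3.73 ± 0.55 (SE), adjusted p = 0.000210). Cd209b, which encodes the C-type lectin SIGN-R1, went from 43.6, 48.8 and 70.3 CPM to 360.0, 306 and 440.3 CPM (log2 fold change 2.76 ± 0.33 (SE), adjusted p = 3.31e-05). In both genes the highest CD11b+ value was that of replicate 3. Leaving out that library took the log2 fold change of Gp2 to 4.52. Siglecf, a sialic acid-binding receptor, had 20.4, 17.4 and 32.5 CPM in CD11b+ and 152, 109.6 and 179 CPM in double-positive DCs (log2 fold change 2.65 ± 0.51 (SE), adjusted p = 0.00191).

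Among the other large rises, Apol10b, of the apolipoprotein L family, had 21.1, 18.3 and 32.3 CPM in CD11b+ and 209, 196 and 249.6 CPM in double-positive DCs (log2 fold change 3.19 ± 0.22 (SE), adjusted p = 2.01e-07). The carboxypeptidase gene Cpm was even across its CD11b+ libraries at 13.2, 12.9 and 12.1 CPM, against 126, 102.5 and 138 CPM in double-positive DCs (log2 fold change 3.26 ± 0.27 (SE), adjusted p = 9.98e-07). Gpr4, a receptor that senses protons, was at 11.3, 10.4 and 22.5 CPM and 114, 111 and 153 CPM (log2 fold change 3.09 ± 0.26 (SE), adjusted p = 1.35e-06). The prostaglandin E2 receptor gene Ptger3 was at 5.64, 7.58 and 13.8 CPM and 60.1, 45.9 and 61.5 CPM (log2 fold change 2.63 ± 0.37 (SE), adjusted p = 0.000134). Ly75 encodes the endocytic receptor DEC-205 and was among the genes of smallest p, at 6.10, 6.26 and 9.38 CPM and 41.4, 37.1 and 48.2 CPM (log2 fold change 2.54 ± 0.18 (SE), adjusted p = 2.42e-07). Tmeff1, Ppp1r1a, Ppm1j and Lad1 rose from means of 4.98, 8.11, 6.58 and 10.9 CPM to 39.6, 61.6, 38.3 and 63.6 CPM. The CD11b+ level of Lad1 was 4.49, 6.33 and 21.95 CPM and that of Ppp1r1a 5.31, 4.32 and 14.7 CPM. Angpt4, Ccdc162 and Ttc39a were read at lower levels, with means of 15.1, 15.7 and 13.9 CPM in double-positive DCs and log2 fold changes of 3.92, 2.84 and 2.56. CD11b+ replicate 3 was the highest CD11b+ library in 14 of these 15 genes, Cpm being the exception, and in 6 of 14 genes with the largest falls. Without that library the log2 fold change went from 2.53 to 3.55 for Lad1, from 2.92 to 3.67 for Ppp1r1a and from 3.92 to 4.52 for Angpt4.

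The genes that fell most included several that are characteristic of monocytes and macrophages. Fn1 (fibronectin) had 27.1, 62.0 and 139 CPM in CD11b+ DCs and 0.373, 1.02 and 1.25 CPM in double-positive DCs (log2 fold change -6.42 ± 0.69 (SE), adjusted p = 1.13e-05). Retnla, which encodes the resistin-like protein RELM alpha, was at 208, 361 and 1110 CPM and 7.71, 8.57 and 7.00 CPM (log2 fold change -6.17 ± 0.73 (SE), adjusted p = 3.12e-05). Both varied widely among the CD11b+ libraries and were highest in replicate 3. Their log2 fold changes without that library were -5.65 for Fn1 and -5.20 for Retnla. Ccr2, the receptor by which monocytes leave the bone marrow, was more even, at 359, 397 and 277 CPM against 7.23, 8.91 and 3.78 CPM (log2 fold change -5.69 ± 0.47 (SE), adjusted p = 1.10e-06), and was lowest in CD11b+ replicate 3.

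The chemokine gene Ccl9 was at 67.5, 92.7 and 146 CPM and 1.83, 3.29 and 2.25 CPM and had the smallest p of all genes (log2 fold change -5.37 ± 0.29 (SE), adjusted p = 3.92e-08). Ly6c2, the monocyte antigen, was at 15.4, 14.4 and 12.03 CPM and 0.410, 0.610 and 0.571 CPM (log2 fold change -4.70 ± 0.32 (SE), adjusted p = 2.01e-07). For Kcnn4, a calcium-activated potassium channel, the values were 45.3, 64.4 and 49.1 CPM and 2.01, 1.46 and 2.57 CPM (log2 fold change -4.72 ± 0.32 (SE), adjusted p = 2.01e-07). Mrc1, the mannose receptor of macrophages, fell from 39.3 ± 9.43 to 1.73 ± 0.933 CPM (mean ± SD, n = 3), and Lrp1, an endocytic receptor, from 16.7 ± 5.27 to 0.505 ± 0.218 CPM. Cd209d, a lectin gene of the same family as Cd209b, fell from 25.6 ± 13.9 to 0.826 ± 0.357 CPM. F13a1 (coagulation factor XIII), Fcrls, AB124611 and Ckap4 completed the group with log2 fold changes of -5.61, -5.54, -4.51 and -4.45. Fcrls was at 23.1, 50.5 and 118 CPM and F13a1 at 10.0, 15.2 and 36.7 CPM in the CD11b+ libraries, and without CD11b+ replicate 3 their log2 fold changes were -4.74 and -4.90. Without double-positive replicate 1 that of F13a1 was -6.73, and without double-positive replicate 2 that of AB124611 was -5.21. Retnlg, a second resistin-like gene, rested on 1 library, with 6.35, 3.66 and 73.5 CPM in CD11b+ DCs and 0.373, 0.271 and 1.32 CPM in double-positive DCs (log2 fold change -5.40 ± 1.12 (SE), adjusted p = 0.00355); without CD11b+ replicate 3 its log2 fold change was -2.93, adjusted p = 0.0340, and without double-positive replicate 3 it was -6.42.

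**Figure D2:**
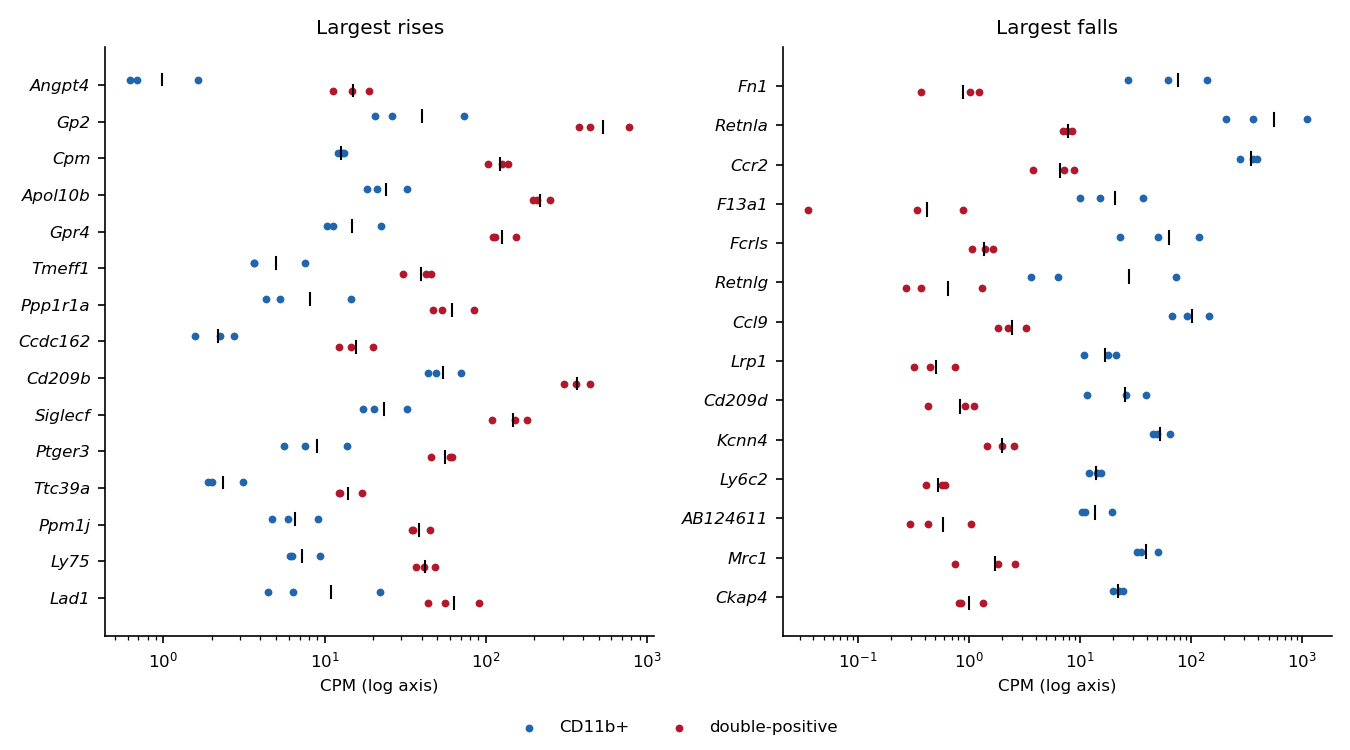
CPM of each library (log axis) for the 15 genes with the largest rises and 14 genes with the largest falls, with CD11b+ libraries in blue, double-positive libraries in red and the mean of each 3 as a vertical bar. Genes were picked only where the groups do not overlap, so the colours are apart by choice. Retnlg shows the widest spread among CD11b+ libraries.

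Small p-values also marked genes with smaller differences but little spread. Arpin, an inhibitor of the Arp2/3 complex in cell migration, was at 7.54, 5.86 and 8.46 CPM and 41.4, 39.4 and 42.0 CPM (log2 fold change 2.49 ± 0.16 (SE), adjusted p = 1.52e-07). Rtl8c, a gene derived from a retrotransposon, was at 30.3, 28.2 and 35.1 CPM and 78.6, 85.2 and 82.4 CPM (log2 fold change 1.40 ± 0.09 (SE), adjusted p = 1.52e-07). Among the falls, Blnk, an adaptor of B cell receptor signalling, had 13.6, 16.7 and 20.3 CPM and 0.633, 1.08 and 0.785 CPM (log2 fold change -4.33 ± 0.28 (SE), adjusted p = 1.52e-07). The transcription factor gene Sox4 had 6.14, 5.78 and 5.31 CPM and 0.633, 0.813 and 1.11 CPM (log2 fold change -2.75 ± 0.18 (SE), adjusted p = 1.52e-07). Itgb5, the beta chain that pairs with the integrin alpha v chain, had 28.9, 27.3 and 46.1 CPM and 2.98, 2.78 and 4.14 CPM (log2 fold change -3.37 ± 0.22 (SE), adjusted p = 1.52e-07). In none of these 5 genes did the groups overlap, which a call at these thresholds nearly fixes in advance.

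Promoters of the most abundant rising and falling genes with a single annotated start are given here because the genes moved most while well read. They are RefSeq sequences on GRCm38.p6, from 250 bases before to 50 after the start, 5′ to 3′ on the strand of the gene. Capitals mark matches to the cores TGGGAA (RBPJ, the factor that acts downstream of Notch), GAGGAAGT (PU.1, a factor of myeloid cells) and GCGTG (the xenobiotic response element of the aryl hydrocarbon receptor) on either strand. Gp2 (chr7:119459223-119459522, minus strand) and Cd209b (chr8:3926792-3927091, minus strand) were the rising genes, and Retnla (chr16:48842359-48842658, plus strand) and Ccr2 (chr9:124101933-124102232, plus strand) the falling ones.
Gp2: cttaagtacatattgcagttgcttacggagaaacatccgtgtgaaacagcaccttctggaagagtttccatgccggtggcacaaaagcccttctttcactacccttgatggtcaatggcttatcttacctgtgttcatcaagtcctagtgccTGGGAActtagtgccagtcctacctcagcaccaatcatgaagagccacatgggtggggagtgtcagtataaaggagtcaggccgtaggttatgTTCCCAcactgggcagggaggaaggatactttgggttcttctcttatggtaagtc
Cd209b: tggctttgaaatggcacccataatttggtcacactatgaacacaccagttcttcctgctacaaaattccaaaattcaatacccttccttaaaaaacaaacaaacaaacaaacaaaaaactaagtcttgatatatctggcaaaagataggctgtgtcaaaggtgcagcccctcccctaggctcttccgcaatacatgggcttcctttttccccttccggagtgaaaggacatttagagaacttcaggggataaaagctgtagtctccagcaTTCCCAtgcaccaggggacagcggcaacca
Retnla: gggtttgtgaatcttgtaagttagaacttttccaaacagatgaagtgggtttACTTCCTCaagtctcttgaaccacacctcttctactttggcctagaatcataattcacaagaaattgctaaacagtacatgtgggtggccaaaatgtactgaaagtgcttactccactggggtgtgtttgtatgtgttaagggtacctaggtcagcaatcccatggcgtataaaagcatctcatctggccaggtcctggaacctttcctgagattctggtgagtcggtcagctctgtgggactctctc
Ccr2: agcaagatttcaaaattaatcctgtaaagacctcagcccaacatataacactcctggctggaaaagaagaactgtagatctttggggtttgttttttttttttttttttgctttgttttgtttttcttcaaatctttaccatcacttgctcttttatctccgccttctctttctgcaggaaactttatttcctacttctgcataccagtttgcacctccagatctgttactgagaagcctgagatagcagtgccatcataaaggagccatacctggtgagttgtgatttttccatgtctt
The matches were an RBPJ core 98 bases before the start of Gp2 and another on the opposite strand 5 bases before it, an RBPJ core at base 21 after the start of Cd209b and a PU.1 core 198 bases before the start of Retnla. Matches to the RBPJ core are common. The RBPJ core was found in 29.7% of the 145 higher genes with a promoter, 27.1% of the 468 lower genes and 26.9% of all 11442 tested genes with one. For the PU.1 core the shares were 6.90%, 5.77% and 4.05%, and for the xenobiotic response element 49.7%, 40.8% and 52.9%. The shares are descriptions of these windows and were not tested.

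Called members of each list below stand beside 1.14% higher and 3.67% lower over all genes tested. None of the 10 tested genes of the cDC core list, which holds Flt3, Zbtb46 and Kit, was called, and their median log2 fold change was 0.17. In the cDC2 list, 3 of 15 genes were lower and none higher, with a median of 0.05. Zeb2, a transcription factor needed for cDC2, was at 71.1, 53.5 and 74.0 CPM and 37.1, 29.0 and 25.0 CPM (log2 fold change -1.13 ± 0.25 (SE), adjusted p = 0.00612), and lost its call without CD11b+ replicate 3 (-1.04, adjusted p = 0.0221). The lectin gene Clec10a was at 211, 237 and 124 CPM and 77.1, 84.5 and 34.7 CPM (-1.54 on the log2 scale), and Ltb, which encodes lymphotoxin beta, at 107, 71.2 and 122 CPM and 29.0, 39.8 and 16.2 CPM (-1.82). Irf4 and Notch2, on which double-positive DCs depend, did not pass the test, with means of 62.7 and 69.2 CPM for Irf4 and 30.4 and 28.7 CPM for Notch2. The most abundant gene of the list, Cd209a, had means of 2064 ± 637 CPM in CD11b+ and 2131 ± 228 CPM in double-positive DCs. No gene of the cDC1 list passed the test. Without CD11b+ replicate 3, Esam and Clec4a4 of the cDC2 list were called higher and Clec12a lower, and Clec9a of the cDC1 list was called lower.

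Of 7 genes for which gut double-positive DCs are known, 2 rose and 1 fell, and the median was 0.82. Cd101, which encodes an inhibitory surface receptor, was at 85.2, 80.1 and 87.1 CPM in CD11b+ DCs and 262, 253 and 307 CPM in double-positive DCs (log2 fold change 1.70 ± 0.21 (SE), adjusted p = 3.59e-05), and Siglecf is described above. Il22ra2 encodes the soluble binding protein that blocks IL-22 and was lower in double-positive DCs, at 909.9, 629 and 1914 CPM against 88.4, 92.2 and 47.1 CPM (log2 fold change -3.92 ± 0.43 (SE), adjusted p = 1.47e-05). Aldh1a2, which makes retinoic acid, had means of 101 ± 4.68 and 178 ± 11.3 CPM and did not reach a fold of 2 (log2 fold change 0.82 ± 0.19 (SE), adjusted p = 0.00813). Trem1, an activating receptor of myeloid cells, had 59.4, 60.3 and 150.3 CPM and 220.0, 187 and 291 CPM (log2 fold change 1.37 ± 0.34 (SE), adjusted p = 0.0124). Trem1 and Cd24a, neither of them called with all libraries, were called higher without CD11b+ replicate 3.

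Macrophage and monocyte genes were lower in double-positive DCs in most cases. Of the 20 genes of this list, 13 were lower and 1 higher, against 3.67% and 1.14% of all genes tested, and the median log2 fold change was -2.73. The 3 chains of complement C1q fell together: C1qa was at 163, 113 and 311 CPM in CD11b+ and 20.7, 21.1 and 18.02 CPM in double-positive DCs (log2 fold change -3.30 ± 0.34 (SE), adjusted p = 7.66e-06), and C1qb and C1qc fell by 3.17 and 3.11 on the log2 scale. Csf1r, the receptor for macrophage colony-stimulating factor, was at 481, 474 and 759.6 CPM and 136, 146 and 145 CPM (log2 fold change -2.01 ± 0.25 (SE), adjusted p = 4.88e-05). The fractalkine receptor gene Cx3cr1 was at 43.9, 37.3 and 51.8 CPM and 8.12, 5.19 and 4.71 CPM (log2 fold change -2.88 ± 0.34 (SE), adjusted p = 3.13e-05). Lyz2 (lysozyme) and Apoe, the most abundant of the list, fell from 9920 ± 4678 to 2750 ± 520.1 CPM and from 1107 ± 577 to 207 ± 11.4 CPM. Cd163, Mrc1, Ccr2 and Ly6c2 were also lower. Fcgr1, which encodes the CD64 on which cells were excluded, was itself lower, at 10.4, 11.1 and 7.90 CPM and 1.53, 1.15 and 1.46 CPM.

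The gene of the list that was higher in double-positive DCs was Adgre1, which encodes F4/80, at 84.7, 79.1 and 122 CPM and 210.1, 177 and 201 CPM (log2 fold change 1.04 ± 0.22 (SE), adjusted p = 0.00471). Cd68 and Ms4a7 did not pass the test, with log2 fold changes of 0.19 and -0.04. The summed level of the list was 12224, 9152 and 20320 CPM in CD11b+ replicates 1, 2 and 3 and 3732 to 4672 CPM in the double-positive libraries. CD11b+ replicate 3 was the highest, and no CD11b+ library overlapped the double-positive ones. Without replicate 3 the 13 genes were again lower and the median was -2.46. In CD103+ DCs of the lamina propria the sum was 1468 to 1611 CPM.

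Plasma cell genes were also lower, with 7 of 8 called, against 3.67% of all genes tested, and a median of -2.65. Igha, the constant region of IgA, was at 4391, 6866 and 4778 CPM in CD11b+ and 838, 871 and 844 CPM in double-positive DCs (log2 fold change -2.65 ± 0.32 (SE), adjusted p = 3.36e-05), and Jchain at 1325, 1754 and 1354 CPM and 241, 251 and 248 CPM. Igkc, Mzb1, Sdc1, Derl3 and Tnfrsf17 fell with them. The exception, Ighm, had means of 383 and 461 CPM. The summed level was 9387 to 13803 CPM in CD11b+, 1985 to 2255 CPM in double-positive and 2257 to 3900 CPM in CD103+ DCs. The 7 genes were again lower without CD11b+ replicate 3.

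Markers of B cells, innate lymphoid cells, plasmacytoid DCs and granulocytes were read at lower levels. Of all genes tested, 3.67% were called lower. Of the B cell list, Cd79a and Cd79b were lower (2 of 8), and its sum was 48.1 to 56.0 CPM in CD11b+ against 12.4 to 16.1 CPM in double-positive DCs. In the list of innate lymphoid and NK cells 4 of 10 genes were lower, among them Rora, Il22 and Klrb1c, with sums of 33.2 to 50.5 and 19.6 to 23.0 CPM and with Eomes at 0 in all 6 libraries. Il22 and Klrb1c lost their calls without CD11b+ replicate 3, with log2 fold changes of -3.54 and -2.42 there against -3.75 and -2.70 with all libraries. For plasmacytoid DCs, Siglech, Ly6d and Spib were lower (3 of 6), and the sums were 102.5 to 132 and 64.4 to 70.5 CPM. Granulocyte and mast cell genes summed to 35.8 to 139.6 and 6.89 to 13.2 CPM, the highest value again in CD11b+ replicate 3. Of the 3 genes of that list that were lower (of 9), Retnlg and Csf3r lost their calls without it and Prg2 kept its call. Csf3r had a log2 fold change of -2.50 with and -2.16 without that library. Mcpt1 and Mcpt2 were at 0 in every library. No gene of the T cell or of the stroma and endothelium list was called, and the T cell sums of 25.8 to 58.7 and 11.8 to 30.0 CPM overlapped.

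In the epithelium list, Epcam alone was called, of 14 genes. It is an adhesion molecule that some DCs also make, and was at 164, 159 and 307 CPM in CD11b+ and 412, 421 and 524 CPM in double-positive DCs (log2 fold change 1.11 ± 0.25 (SE), adjusted p = 0.00606). The rest of that list summed to 46.3 to 271 CPM in CD11b+ and 30.3 to 117 CPM in double-positive DCs. Without CD11b+ replicate 3 the median of the epithelium list went from -1.36 to -0.28. The sum of the cDC1 list was 1008 to 1057 and 1084 to 1157 CPM, against 18221 to 18878 CPM in CD103+ DCs. The part of these other cells in the differences of the DC genes was not tested.

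**Figure D3:**
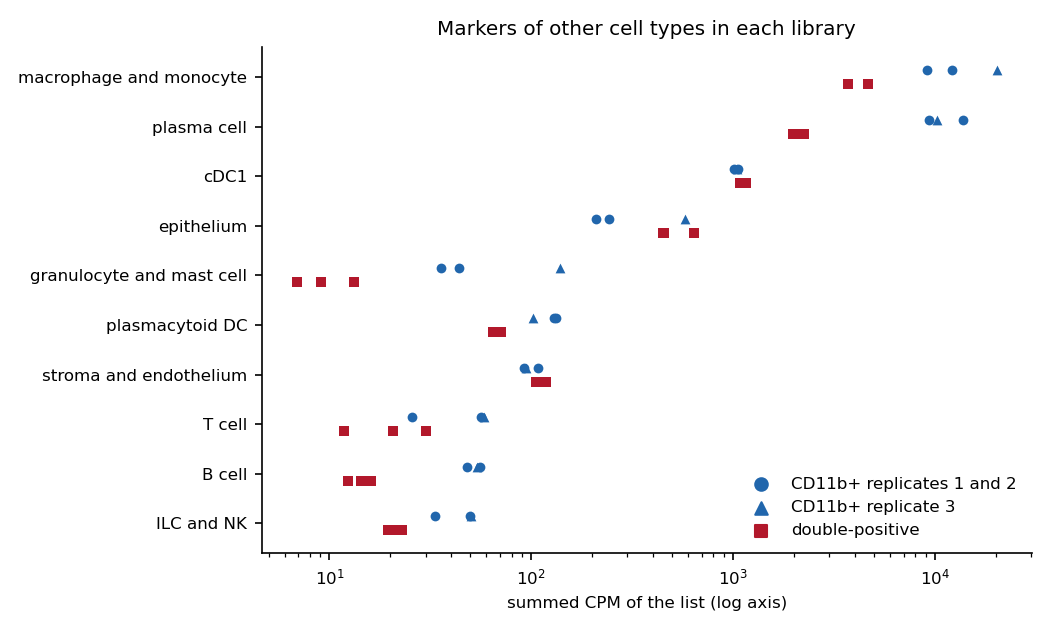
Summed CPM (log axis) of each list of markers of another cell type in each of the 6 libraries. Macrophage and monocyte, plasma cell and B cell sums were higher in every CD11b+ library (blue) than in every double-positive library (red). The same held for innate lymphoid and NK cells, plasmacytoid DCs, and granulocytes and mast cells, whereas the cDC1 sums were lower. CD11b+ replicate 3 (triangle) was the highest for macrophages and monocytes.

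Among chemokine receptors, 1 of 17 genes rose and 6 fell, against 1.14% and 3.67% of all genes tested, with a median of -1.36. The summed level of the list went the other way, at 1160 to 1730 CPM in CD11b+ and 1928 to 2157 CPM in double-positive DCs. Ccr7, by which DCs migrate to lymph nodes, was at 40.7, 25.4 and 64.0 CPM in CD11b+ and 129, 147 and 194 CPM in double-positive DCs (log2 fold change 1.85 ± 0.28 (SE), adjusted p = 0.000297). Ccr6, Ccr9 and Ccr10 fell by 2.78, 1.61 and 2.15 on the log2 scale. Ccr9, the receptor for the small intestinal chemokine CCL25, thus had more reads in CD11b+ DCs, at means of 77.2 against 25.3 CPM. Cxcr4 and Ccr3 were also lower but lost their calls without CD11b+ replicate 3, in which Ccr3 was at 15.3 CPM against 1.80 and 1.17 CPM in the other CD11b+ libraries. The log2 fold change went from -4.73 to -2.70 for Ccr3 and from -1.36 to -1.25 for Cxcr4. Of 19 chemokine genes, Ccl9 and Ccl6 were lower and none was higher, with a median of -0.84. Ccl6 was at 259.6, 315 and 341 CPM and 35.8, 42.2 and 18.5 CPM (log2 fold change -3.25 ± 0.24 (SE), adjusted p = 3.96e-07).

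Of 18 genes of the list of DC maturation, 5 rose and none fell, against 1.14% and 3.67% of all genes tested, with a median of 0.52. Ccl22, a chemokine that attracts regulatory T cells, was at 111, 151 and 180.0 CPM and 447, 599 and 1013 CPM (log2 fold change 2.22 ± 0.27 (SE), adjusted p = 3.55e-05). Fscn1, the actin-bundling protein of mature DCs, was at 25.9, 21.9 and 32.9 CPM and 65.5, 73.6 and 75.8 CPM (log2 fold change 1.41 ± 0.20 (SE), adjusted p = 0.000166). The calcium channel subunit gene Cacnb3 had a log2 fold change of 2.06. Cd274 and Pdcd1lg2, which encode the inhibitory ligands PD-L1 and PD-L2, had log2 fold changes of 1.07 and 1.13, with means of 75.6 and 158 CPM for Cd274. Cd86 and Cd83 had log2 fold changes of 0.89 and 0.91, under the fold of 2, and Cd80 and Cd40 of 0.01 and 0.29. Without CD11b+ replicate 3, Socs2 was called higher as well and Tnfsf4 lower, and the median was 0.29. In the MHC class II list Cd1d1 was the only gene called of 15, at 57.8, 40.7 and 49.9 CPM and 102, 101 and 104 CPM (log2 fold change 1.05 ± 0.18 (SE), adjusted p = 0.000913). Cd1d1 presents lipids to NKT cells and is not itself a class II gene, so the class II genes of the list were not called.

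Cytokine genes were mostly not called. Il12b, the p40 chain of IL-12 and IL-23, was the gene that rose of 18, from a low level (2.98, 1.13 and 3.28 CPM and 6.67, 7.46 and 10.0 CPM; log2 fold change 1.69 ± 0.37 (SE), adjusted p = 0.00478). Il1rn, the antagonist of the IL-1 receptor, fell from 141, 97.3 and 259 CPM to 18.8, 22.7 and 19.0 CPM (log2 fold change -3.04 ± 0.33 (SE), adjusted p = 1.13e-05), and Osm (oncostatin M) by 2.40 on the log2 scale. Il1b was abundant in both, at means of 1283 ± 357 and 1455 ± 216 CPM, and was not called. Il1a was called higher without CD11b+ replicate 3. In the list of lipid mediators 1 of 16 genes rose and 5 fell, against 1.14% and 3.67% of all genes tested. Alox5, the 5-lipoxygenase that starts leukotriene synthesis, was at 38.6, 36.8 and 56.4 CPM and 11.1, 9.08 and 5.25 CPM (log2 fold change -2.37 ± 0.37 (SE), adjusted p = 0.000383), while Ltc4s, which makes leukotriene C4, rose from 3.12, 3.40 and 5.09 CPM to 14.5, 11.6 and 14.7 CPM (log2 fold change 1.81 ± 0.32 (SE), adjusted p = 0.000954). Ptgs1 and the prostaglandin receptor genes Ptger2 and Ptgir fell by 2.02, 3.20 and 6.01 on the log2 scale. Ptgir was at 5.42, 9.59 and 6.47 CPM in CD11b+ and 0.149, 0.0678 and 0.107 CPM in double-positive DCs, so the size of its fall rests on few reads (SE 0.89). Alox15 fell with all libraries (-4.36 on the log2 scale) and was not called without CD11b+ replicate 3 (-2.41, adjusted p = 0.0681).

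Of 18 genes of the cholesterol list, Fdft1, the squalene synthase, rose (62.0, 65.7 and 60.5 CPM and 134, 113 and 164 CPM; log2 fold change 1.13 ± 0.14 (SE), adjusted p = 3.38e-05). Nr1h3 (the sterol sensor LXR alpha) and its targets Abca1 and Abcg1, which export cholesterol, fell by 2.31, 3.23 and 1.19 on the log2 scale. Abca1 was read at no more than 3.85 CPM and lost its call without CD11b+ replicate 3, at a log2 fold change of -2.97; without double-positive replicate 2 it was -4.27. Sqle and Idi1, of sterol synthesis, had log2 fold changes of 0.88 and 0.96, both under the fold of 2, and the median of the list was 0.72.

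In the Notch list the receptor gene Notch4 and the ligand gene Jag2 rose, and the ligand gene Dll1 and the target gene Hes1 fell, of 18 genes. Hes1 was at 15.8, 10.7 and 19.6 CPM and 1.83, 1.19 and 1.21 CPM (log2 fold change -3.45 ± 0.31 (SE), adjusted p = 2.05e-06), and Notch4 at 1.47, 2.49 and 4.93 CPM and 10.3, 8.24 and 16.6 CPM (log2 fold change 1.98 ± 0.40 (SE), adjusted p = 0.00311). Dll1 was at no more than 2.33 CPM in any of the 6 libraries, and its log2 fold change was -4.71 with all libraries and -4.07 without CD11b+ replicate 1. Of 20 TGF-beta genes Ltbp3, Smad3 and Eng were lower and none was higher. All 3 were read at low levels in CD11b+ DCs, with means of 6.20, 2.20 and 8.01 CPM. The receptor genes Tgfbr1 and Tgfbr2 had log2 fold changes of -0.06 and -0.20 and were not called. In the list of retinoic acid genes Rarg, a retinoic acid receptor, was lower (8.11, 12.6 and 5.34 CPM and 0.447, 1.05 and 0.357 CPM; log2 fold change -3.79 ± 0.39 (SE), adjusted p = 7.65e-06) and the other 14 were not called. Without double-positive replicate 2 the log2 fold change of Rarg was -4.42.

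Of the integrins, Itgb5, Itgb3 and Itga9 were lower among 17 genes, and Itga9, at -2.86 on the log2 scale, was not called without CD11b+ replicate 3 (-2.53, adjusted p = 0.0102). Of 28 pattern recognition genes Tlr7, a sensor of single-stranded RNA, was lower at 3.12, 1.87 and 6.44 CPM and 0.0373, 0.102 and 0.321 CPM (log2 fold change -4.59 ± 0.69 (SE), adjusted p = 0.000241), as was Tlr12 (32.4, 31.3 and 51.8 CPM and 18.1, 16.6 and 12.3 CPM; log2 fold change -1.30 ± 0.18 (SE), adjusted p = 0.000112). The log2 fold change of Tlr7 was -3.98 without CD11b+ replicate 3 and -5.67 without double-positive replicate 3. Tlr11 and Clec4n, with log2 fold changes of 0.76 and 1.46, were not called. Of 8 Fc receptor genes the inhibitory receptor gene Fcgr2b was lower (128, 118 and 116 CPM and 47.0, 41.4 and 24.8 CPM; log2 fold change -1.68 ± 0.26 (SE), adjusted p = 0.000293). Irf7 and Ifi44 were lower among 17 interferon-stimulated genes, by 1.54 and 1.33 on the log2 scale, and Ifi44 lost its call without CD11b+ replicate 3 (-1.01, adjusted p = 0.0373). Of 21 immediate early and heat shock genes, which respond to tissue dissociation, Ier3 alone was called (log2 fold change -2.08), and the summed level was 18926 to 21369 CPM in CD11b+ and 21259 to 25395 CPM in double-positive DCs. Further calls without CD11b+ replicate 3 were Itga1 and Fcgrt, lower, and Ido1, higher. None of 17 proliferation genes and none of 13 genes of the aryl hydrocarbon receptor and tryptophan list was called, with medians of 0.18 and 0.14.

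**Figure D4:**
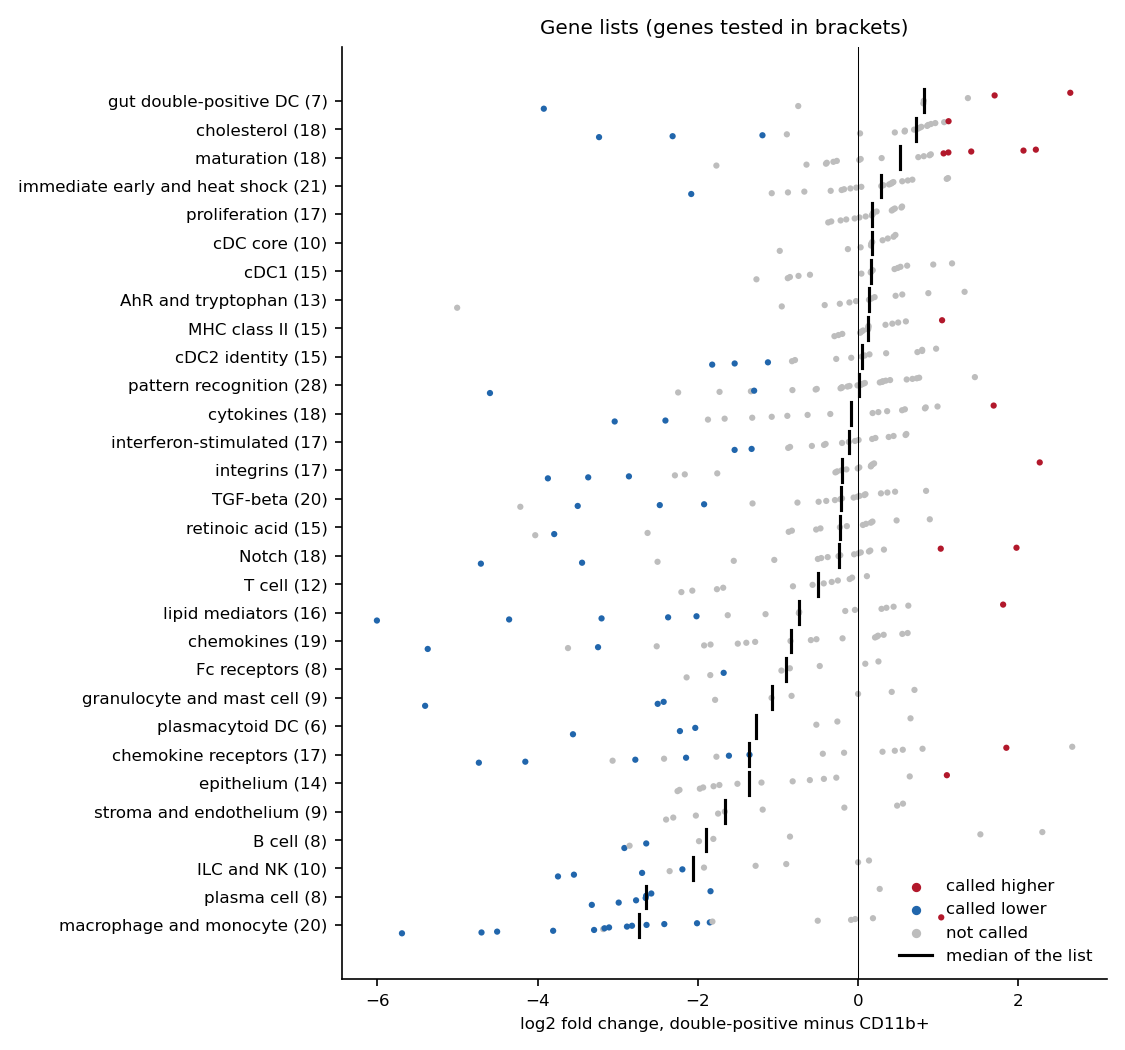
Log2 fold change (double-positive minus CD11b+) of each tested gene of the 30 lists, with genes called higher in red, lower in blue and not called in grey, and the median of each list as a black bar. The lowest medians are those of the macrophage and monocyte list (-2.73) and the plasma cell list (-2.65), and the highest is that of the gut double-positive DC list (0.82).

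Among the higher genes, some were also well read in CD103+ DCs and others hardly at all. In 3 CD103+ libraries of the lamina propria, Apol10b had a mean of 327 ± 21.1 CPM, Gpr4 132 ± 16.5 CPM, Ly75 141 ± 10.7 CPM and Ttc39a 414 ± 6.60 CPM (± SD). These levels were near or above those of double-positive DCs. By contrast Gp2, Cd209b, Cd101 and Tmem273 had means of 1.39, 0.772, 0.775 and 0.381 CPM in CD103+ DCs. The log2 difference of double-positive minus CD103+ DCs was 8.71 for Gp2, 9.03 for Cd209b and 8.52 for Cd101 (adjusted p = 8.13e-08, 3.67e-10 and 3.52e-12), against -0.58 for Apol10b and -0.06 for Gpr4, which were not called. That comparison called 13.6% of all genes tested, and it shares the double-positive libraries with the present one.

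The 2 populations of the same labels in the intestinal lymph nodes, 3 libraries each, were compared in the same way. The sort genes differed there from the lamina propria. Itgam had lymph node means of 20.8 CPM in CD11b+ and 5.16 CPM in double-positive DCs, a log2 difference of -2.01. Itgae had 5.97 and 46.1 CPM. Whether the gates held the same kinds of cells in both tissues was not tested. In the lymph node 6.92% of the genes tested were higher and 9.82% lower in double-positive DCs. Of the 194 genes higher in the lamina propria, 92 were also higher in the lymph node and 28 were lower there. Of the 627 lower genes, 256 were also lower and 28 were higher. The difference had the same sign in 132 of the higher genes (68.0%, against 45.6% of all genes tested) and in 510 of the lower genes (81.3%, against 54.0%).

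Whether the differences themselves differed between the tissues was tested as an interaction, the lamina propria difference minus the lymph node difference. It was called for 11.6% of the genes tested. Among the higher genes 84 were called in it, and among the lower genes 207. Both tests use the same lamina propria libraries. Siglecf was lower in lymph node double-positive DCs (4.83 CPM in CD11b+ DCs and 0.597 CPM in double-positive DCs), and the tissue difference was 5.77 ± 0.85 (SE; adjusted p = 7.91e-05). Ptger3 likewise had 25.9 CPM in CD11b+ DCs and 3.80 CPM in double-positive DCs in the lymph node, with a tissue difference of 5.40 ± 0.53 (SE; adjusted p = 1.47e-06). Cd209b had 71.3 CPM in CD11b+ DCs and 15.7 CPM in double-positive DCs there, with a tissue difference of 4.94 ± 0.47 (SE, adjusted p = 1.19e-06). Such a fall was not particular to these genes. Cd209a and Clec4a2, not called in the lamina propria, had 241 and 34.5 CPM in lymph node CD11b+ DCs. In double-positive DCs there they had 9.52 and 1.95 CPM, with tissue differences of 4.72 and 4.90. Other CD209 and Clec4 lectin genes were also lower there, except Clec4b2, which was higher, and Clec4d and Clec4e, not called. The tissue difference of Itgam was 2.17. The lymph node levels of Gp2 were low in both populations, 11.8 CPM in CD11b+ DCs and 6.40 CPM in double-positive DCs (4.62 ± 0.78 (SE; adjusted p = 0.000265)).

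Ffar2, the receptor for short-chain fatty acids, was higher in double-positive DCs of the lamina propria (57.6, 51.5 and 87.1 CPM and 127, 127 and 141 CPM) and lower in those of the lymph node, with 117 CPM in CD11b+ DCs and 10.2 CPM in double-positive DCs, and its tissue difference was 4.53 ± 0.35 (SE; adjusted p = 1.69e-07). Its lamina propria fold was just past 2 (log2 fold change 1.01 ± 0.23 (SE), adjusted p = 0.00728). Scimp, an adaptor of Toll-like receptor signalling, and Havcr2, which encodes TIM-3, had tissue differences of 3.99 and 2.36, and Rtn4rl1, Slc36a3os, Cd101 and Tmem273 of 2.87, 3.46, 3.63 and 3.50. Counts of Slc36a3os, an opposite-strand transcript, are uncertain because the use of strand in counting is not stated. Tmem273 and Havcr2 were at the edge of the fold threshold in the lamina propria (log2 fold change 1.00 and 1.00). In the other direction, Epsti1, an interferon-induced gene, had 76.0, 74.3 and 76.6 CPM and 31.3, 38.0 and 28.9 CPM in the lamina propria and 233 CPM in CD11b+ DCs and 905 CPM in double-positive DCs in the lymph node (-3.17 ± 0.16 (SE; adjusted p = 4.48e-09)). Bst1 (CD157) and Itgb5 had tissue differences of -5.42 and -3.77.

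Other genes had differences of the same direction in both tissues. Apol10b had 38.5 CPM in CD11b+ DCs and 466 CPM in double-positive DCs in the lymph node, a log2 difference of 3.60 beside 3.19 in the lamina propria, and Ccl22 of 2.89 beside 2.22. For Cx3cr1 the pair was -3.39 and -2.88, and for Hes1 -2.97 and -3.45. In the interaction these 4 were not called (adjusted p = 0.313, 0.190, 0.457 and 0.428). The tissues differed in the sex-linked genes: Ddx3y of the Y chromosome was at 50.04 to 74.4 CPM in the lamina propria libraries and 0 to 58.0 CPM in the lymph node libraries, and Xist at no more than 0.214 CPM and at 15.4 to 89.1 CPM. The part of this in the tissue difference was not tested. Scaling by total counts took the median interaction over all genes from -0.00975 to 0.298 on the log2 scale and the genes called in it from 1014 positive and 973 negative to 1760 and 595.

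**Figure D5:**
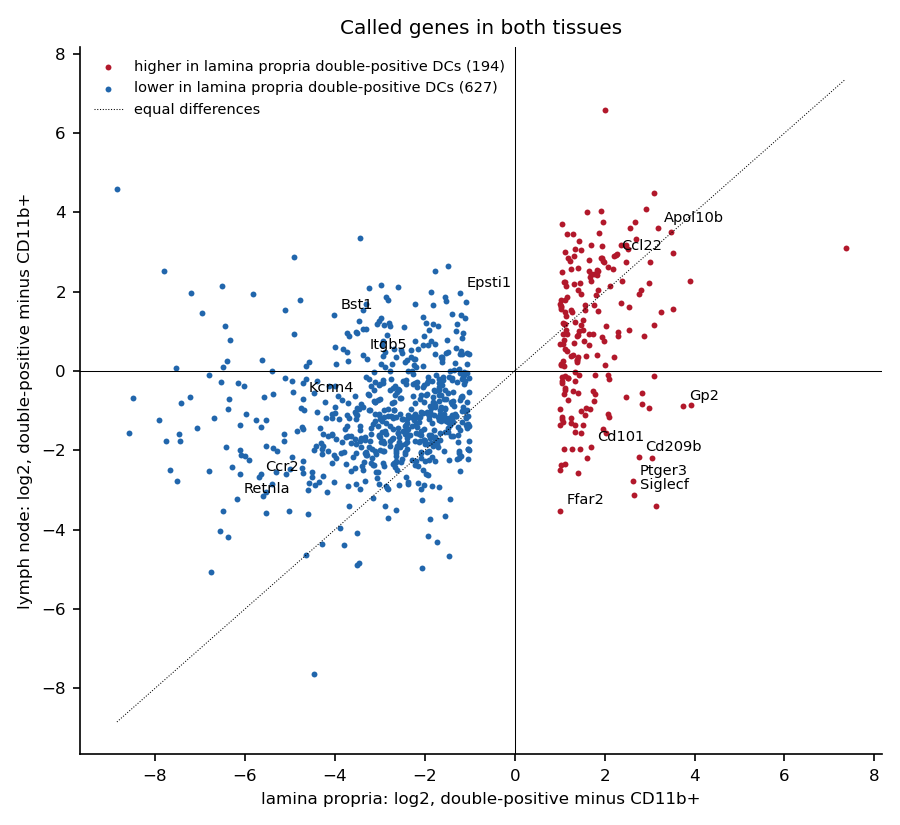
Log2 difference of double-positive minus CD11b+ DCs in the lamina propria (x axis) and in the lymph node (y axis) for the 194 higher (red) and 627 lower (blue) genes of the lamina propria, with a dotted line of equal differences. Siglecf, Ptger3, Cd209b and Ffar2 lie below 0 on the lymph node axis, while Apol10b and Ccl22 lie near the line.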

How the data were processed

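RNA-seq of sorted DCs was analysed from raw read counts per gene, which the authors deposited without normalization. Per the labels, libraries were made with the SMART-seq v4 kit, and the submitters' processing notes name STAR 2.6, FastQC 0.11.7 and GRCm38; the counting settings for these libraries are not given in the sources used here. Of 54232 identifiers, 54079 were matched to symbols by GENCODE vM21 or the gene name table supplied with it.

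Counts were tested with edgeR 4.0.16 (R 4.3.3): TMM scaling, filterByExpr over the 6 groups and 1 quasi-likelihood fit of all 18 libraries, so that the groups share an estimate of the spread. Genes were called at an adjusted p under 0.01 and a fold over 2. The script was tested on simulated data. For pairs of same-group libraries among the 6 compared, the chi-square divided by the number of genes was 14.9 to 64.9, so these replicates differed by more than sampling noise; other pairs of libraries were not checked.

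Named genes were Itgal and the sort genes, the 15 largest rises and 15 largest falls (called, no overlap between groups, mean of at least 10 CPM, no predicted genes), the 10 smallest p, called members of the 30 lists, uncalled members where a count turns on them, and the 10 smallest interaction p among called genes. Other uncalled members were named after their values were seen. Some genes that this rule picked are not reported here. The members and lists were chosen with earlier results of these data known. The lymph node comparison and the counts of list genes without CD11b+ replicate 3 were added after seeing the data. Alternatives were other scalings, filters, thresholds and fits, DESeq2 1.42.0, a replicate block and leaving out each library.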

Additional observations from a re-analysis of the deposited data

Results flagged for a closer look

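The named genes given here were called in the lamina propria and also in the interaction with tissue, so that their difference between double-positive and CD11b+ DCs was itself different in the lymph node. Values are the lamina propria difference minus the lymph node difference on the log2 scale, from edgeR's quasi-likelihood test. Both tests use the same lamina propria libraries. Groups of 3 libraries were too small for the test of single outlying libraries.

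Among genes higher in lamina propria double-positive DCs, the tissue difference was 4.62 for Gp2, 1.76 for Cpm, 1.94 for Gpr4, 3.40 for Ccdc162, 4.94 for Cd209b, 5.77 for Siglecf, 5.40 for Ptger3 and 3.46 for Slc36a3os. It was further 3.99 for Scimp, 2.87 for Rtn4rl1, 4.53 for Ffar2, 2.36 for Havcr2, 3.63 for Cd101, 3.50 for Tmem273 and 3.41 for Adgre1. Genes that were higher in the lamina propria but had a larger rise in the lymph node were fewer, at -1.44 for Cd1d1, -1.11 for Pdcd1lg2 and -1.17 for Fscn1.

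Among genes lower in lamina propria double-positive DCs, the tissue difference was -4.50 for Fn1, -3.02 for Ccr2, -3.43 for Ccl9, -4.02 for Kcnn4, -3.25 for Ly6c2, -2.88 for Blnk, -2.54 for Sox4 and -3.77 for Itgb5. Further values were -3.17 for Epsti1, -5.42 for Bst1, -2.58 for Ltbp3, -2.30 for Il1rn, -3.30 for Il22ra2, -2.38 for Eng, -1.61 for Ptger2 and -2.61 for Abcg1. Next to these it was -2.31 for Tlr12, -1.40 for Ccr6, -2.70 for Spib, -1.97 for Ccr9 and -1.34 for Ccl6. In the other direction, genes whose fall was larger in the lymph node had 1.07 for Derl3 and 2.11 for Clec10a.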

How the results depend on the processing

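DESeq2 size factors, equal depth, no filter, a stricter filter, total counts and the DESeq2 test kept the numbers of higher and lower genes within 1.5 times 194 and 627. The numbers moved further at an adjusted p under 0.05 (298 and 991) and with only the 6 libraries (128 and 378, of which 114 and 336 were shared), and with only the 9 lamina propria libraries 407 genes were lower; the fits of 6 and 9 libraries have fewer libraries to estimate the spread. Leaving out each library in turn gave 131 to 243 higher and 431 to 565 lower genes, and 882 to 937 positive and 875 to 991 negative interactions. Total counts gave 1760 positive and 595 negative interactions in place of 1014 and 973.

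With the replicate number as a block, 164 genes were higher and 406 lower in the fit of the 6 libraries (141 and 331 shared), and 199 and 494 with all 9 lamina propria libraries. Deviations from the group means of same-numbered libraries correlated across genes at 0.212, 0.0750 and 0.250. Those of differently numbered libraries correlated at -0.269 to 0.0880. The second same-numbered value is under the limit of 0.1, so the main test did not pair the libraries. This does not show that they were unpaired. Double-positive replicates 1 and 3 correlated best with the CD11b+ library of their own number, and replicate 2 with CD11b+ replicate 1.

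Of 2159 log2 fold changes of the 127 genes picked by the naming rule, each under an alternative, 1953 kept their direction and side of the threshold, 206 lost the call and 0 reversed. The lost calls fell on 43 genes, most often Tmem273, Havcr2 and Ffar2, whose folds were near 2. Of 480 list medians, 436 moved by less than the spread between replicates.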

Other observations

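Several gene families held members that moved in opposite directions. The families were chosen after their values were seen, and no test was made over them. Of all genes tested, 1.14% were higher and 3.67% lower. Among the CD209 lectins, which bind glycans of microbes, Cd209b rose and Cd209d fell, as described above, while Cd209c (27.2 and 50.5 CPM in CD11b+ and double-positive DCs), Cd209e (8.37 and 2.18 CPM) and the abundant Cd209a were not called. These genes are near-identical in part, and reads shared between them may have been lost or split. Of 4 prostaglandin E receptor genes Ptger3 rose, Ptger2 fell (5.96, 5.86 and 9.95 CPM and 0.745, 0.508 and 1.11 CPM), and Ptger4 and Ptger1 were not called. In the IL-1 system the decoy receptor gene Il1r2 rose from 161, 153 and 213 CPM to 428, 372 and 534 CPM (log2 fold change 1.34 ± 0.18 (SE), adjusted p = 0.000117), whereas the signalling receptor Il1r1, its partner Il1rap and the antagonist Il1rn fell by 2.37, 1.56 and 3.04 on the log2 scale.

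The families below were likewise picked by their values, and their counts stand beside 1.14% higher and 3.67% lower over all genes tested. Of 10 apolipoprotein L genes tested, 3 rose and none fell. Apol7c, the most abundant, was at 517, 512 and 702 CPM in CD11b+ and 1804, 2175 and 2637 CPM in double-positive DCs (log2 fold change 1.93 ± 0.20 (SE), adjusted p = 8.02e-06), with Apol10b and Apol7e beside it. Of 11 serpin B genes 4 rose, among them Serpinb6b (18.2, 16.1 and 25.2 CPM and 87.9, 93.6 and 127 CPM) and the granzyme inhibitor Serpinb9 (57.6, 54.1 and 80.3 CPM and 171, 173 and 255 CPM), and Serpinb8 fell by 2.91 on the log2 scale. Of 21 killer cell lectin-like receptor genes 9 fell and none rose. Klrd1 and Klrk1, which NK cells express, were well read here, at 210.1, 204 and 125 CPM and 72.1, 64.7 and 56.2 CPM for Klrd1 and 206, 198 and 116 CPM and 40.9, 42.5 and 24.9 CPM for Klrk1. The P2Y receptor genes for extracellular nucleotides fell in 4 of 7 cases, P2ry13 from 25.8, 21.6 and 53.5 CPM to 2.24, 2.51 and 2.32 CPM (log2 fold change -3.83 ± 0.35 (SE), adjusted p = 2.29e-06).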
